A study of Mus musculus with 9 samples.

Results

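CTCF peaks were described at a pair of classical mouse insulator loci on chromosome 7. They were the imprinted H19/Igf2 domain (chr7:149700000-149900000, mm9) and the beta-globin cluster (chr7:110900000-111100000, mm9). Hbb-b1 was the gene named for the beta-globin interval, and its place in mm9 was not checked. Every peak overlapping either interval was taken from the 8 CTCF lists, and those sharing 1 bp or more were merged. This gave 9 regions out of 39574 in the whole series, 6 in the H19/Igf2 interval from 42 peaks and 3 in the beta-globin interval from 18 peaks. The regions were chosen by position alone, and they are numbered here from low to high coordinate within each interval.

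The cells were naive splenic CD8+ T cells sorted as GFP+ TCRbeta+ CD62Lhi CD44lo-med CD8+, profiled for CTCF by CUT&RUN, in which a nuclease tethered to an antibody cuts out the DNA around the bound protein. The 4 groups, of 2 libraries each, were Tcf1-/-Lef1-/- cells (DKO) cultured for 72 h in IL-7 plus IL-15, wild-type (WT) cells after the same culture, DKO cells at 0 h and WT cells at 0 h. The mice of both genotypes carried hCD2-Cre, a recombinase driven by human CD2 regulatory sequence that is active in lymphocytes, and the Rosa26-lsl-GFP reporter, so WT cells differ from DKO cells in the floxed Tcf1 and Lef1 alleles. An IgG library of WT cells at 0 h was the only control. Nothing in the labels says that replicates came from separate mice, so p-values measure the spread between these libraries, which may be technical. These are bulk libraries from many cells, in which CTCF on fewer cells and less CTCF per cell cannot be told apart, nor can the maternal and paternal copy.

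CTCF is a zinc-finger protein that marks insulators and anchors chromatin loops. In the H19/Igf2 domain it is known to bind the unmethylated maternal imprinting control region, which lies between the genes beside H19, and to keep the enhancers beyond H19 from acting on Igf2. H19 is a long noncoding RNA made from the maternal copy and Igf2 is a fetal growth factor made from the paternal copy. At the beta-globin cluster, which makes the beta chains of haemoglobin in red cells and sits among olfactory receptor genes, CTCF is known to bind on both flanks in red cell precursors and in other tissues.

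No annotation or genome of mm9 was used, so no region is assigned to a gene, an exon or the imprinting control region, and no sequence under a peak was read. In the RefSeq table of another build, GRCm38, the genes run from low to high coordinate as Lsp1, Prr33, Tnnt3, Mrpl23, Nctc1, H19, Igf2 and Ins2. The beta-globin genes run as Hbb-bt, Hbb-bs, Hbb-bh2, Hbb-bh1 and Hbb-y, with the olfactory receptor genes Olfr67 and Olfr66 on either side. Hbb-b1, the name of an adult beta-globin gene of another mouse haplotype, is not among the genes listed between those olfactory receptor genes.

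The lists held from 10339 to 32587 peaks, and their median fold ran from 7.03 to 10.4. Fold is the authors' enrichment of a peak over its local background, a value of each peak in its own list. All 8 CTCF lists held only peaks of fold 4 or more, so a missing peak means that none was listed, not that CTCF was absent. The IgG list had 5 peaks, and 0 of them lay in either interval. The sources used here give no read depth.

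The 2 intervals were laid out differently. The H19/Igf2 regions lay in 2 close pairs and 2 single sites. Regions 1 (chr7:149718479-149719799) and 2 (chr7:149723593-149724283) were 3793 bp apart. Regions 3 (chr7:149766017-149766937) and 4 (chr7:149767460-149768016) followed after 41.7 kb and were 522 bp apart. Region 5 (chr7:149796125-149796712) lay 28.1 kb further and region 6 (chr7:149856881-149858728) a further 60.2 kb. A seventh region, chr7:149900384-149901599, began 383 bp beyond the upper edge of the interval, had a peak in 7 libraries and is not counted.

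The beta-globin interval held 2 sites far apart that had a peak in every library. Region 1 (chr7:110954958-110956427) and region 3 (chr7:111091051-111092430) had a single weak region between them, region 2 (chr7:111061507-111062018), 105.1 kb from region 1 and 29.0 kb from region 3. The nearest regions outside lay 94.3 kb below region 1 and 247.4 kb above region 3. Over the whole table the median gap from a region to its nearest neighbour was 6.59 kb, and 13.9% of regions had a neighbour within 1000 bp. In tiles of 200 kb over the genome the median was 1 region, 21.0% of tiles held at least 6 and 37.4% at least 3.

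**Figure D1:**
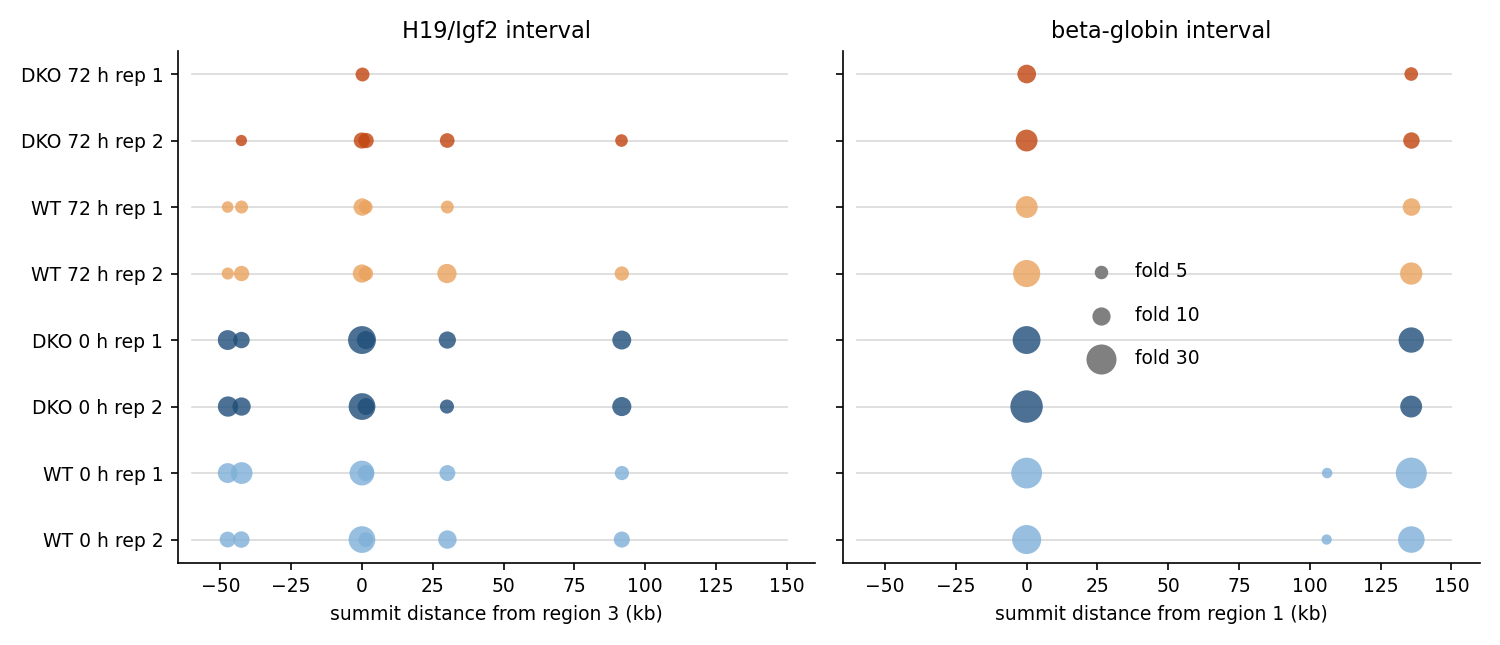
Position of each listed CTCF peak in the 8 libraries, as the distance of its summit in kb from the median summit of H19/Igf2 region 3 (left) or beta-globin region 1 (right), with 1 row per library and the area of each dot in proportion to the authors' fold. The H19/Igf2 interval has 6 columns of dots with gaps in the 72 h rows, and DKO 72 h replicate 1 has a single dot. The beta-globin interval has 2 columns with dots in all 8 rows and small dots of fold 4.22 and 4.07 in the WT 0 h rows.

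The first question is which of these sites carried CTCF in every condition. A peak in all 8 libraries was found at 1 of the 6 H19/Igf2 regions and 2 of the 3 beta-globin regions, against 24.2% of all merged regions. Without DKO 72 h replicate 1, the shortest list, 4 of the 6 H19/Igf2 regions had a peak in all 7 remaining libraries. The share of all regions over these 7 libraries was not computed, and 24.2% is not a reference for this count. All 6 H19/Igf2 regions and 2 of the 3 beta-globin regions had a peak in all 4 libraries at 0 h, against 61.8% of all regions. Of the regions with a peak in all 4 libraries at 0 h, 1 of 6 at H19/Igf2 and 2 of 2 at beta-globin had one in all 4 libraries at 72 h, where the share over the table was 39.2%. No test was made of these small counts.

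Region 3 of the H19/Igf2 interval was its constant site. Its fold was 7.44 and 9.94 in DKO cells at 72 h, 11.6 and 12.8 in WT cells at 72 h, 29.9 and 27.5 in DKO cells at 0 h, and 23.6 and 27.4 in WT cells at 0 h. The 72 h libraries were all below the 0 h libraries, and at 72 h both DKO libraries were below both WT libraries. Both orders were common in the series. Over regions with a peak in the libraries compared, fold in all 4 libraries at 72 h was below all 4 at 0 h at 74.5%, and fold in both DKO libraries at 72 h was below both WT libraries at 50.6%. Within DKO cells, fold in both libraries at 72 h was below both at 0 h at 97.6%. Region 3 had the highest fold of the interval in 7 of 8 libraries, the exception being WT 72 h replicate 2, where region 5 was higher.

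Region 4, the close partner of region 3, was the lower site of the pair. Its fold was 9.02 in DKO 72 h replicate 2, with no peak listed in replicate 1, 7.14 and 8.01 in WT cells at 72 h, 12.7 and 10.9 in DKO cells at 0 h, and 10.1 and 8.48 in WT cells at 0 h. The 72 h and 0 h ranges overlapped. Within each library, the fold of region 3 divided by that of region 4 was 1.10 in DKO 72 h replicate 2, 1.63 and 1.60 in WT cells at 72 h, 2.36 and 2.54 in DKO cells at 0 h, and 2.34 and 3.23 in WT cells at 0 h. The 3 libraries at 72 h that held both peaks were thus below the 4 at 0 h, a pattern noticed in the values and not tested. How often other pairs of regions show this order was not computed, so it is not read as particular to this pair.

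The summits of the pair stayed apart in every library that held both. They were 1506 bp apart in DKO 72 h replicate 2, 1264 and 1404 bp in WT cells at 72 h, 1356 and 1401 bp in DKO cells at 0 h, and 1410 and 1344 bp in WT cells at 0 h. The 2 peaks were merged in 0 libraries, the narrowest gap between them being 522 bp in WT 0 h replicate 2. The peak of region 3 spanned 462 to 788 bp at 72 h and 724 to 914 bp at 0 h, and that of region 4 258 to 336 bp at 72 h and 479 to 537 bp at 0 h. The widths of region 3 overlapped between times and those of region 4 did not. Regions 1 and 2 had no overlap either, with 614 to 711 bp at 72 h against 987 to 1321 bp, and 413 to 580 bp against 630 to 671 bp. Widths did overlap at H19/Igf2 regions 5 and 6 and at beta-globin regions 1 and 3. The share of all regions without overlap was not computed.

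**Figure D2:**
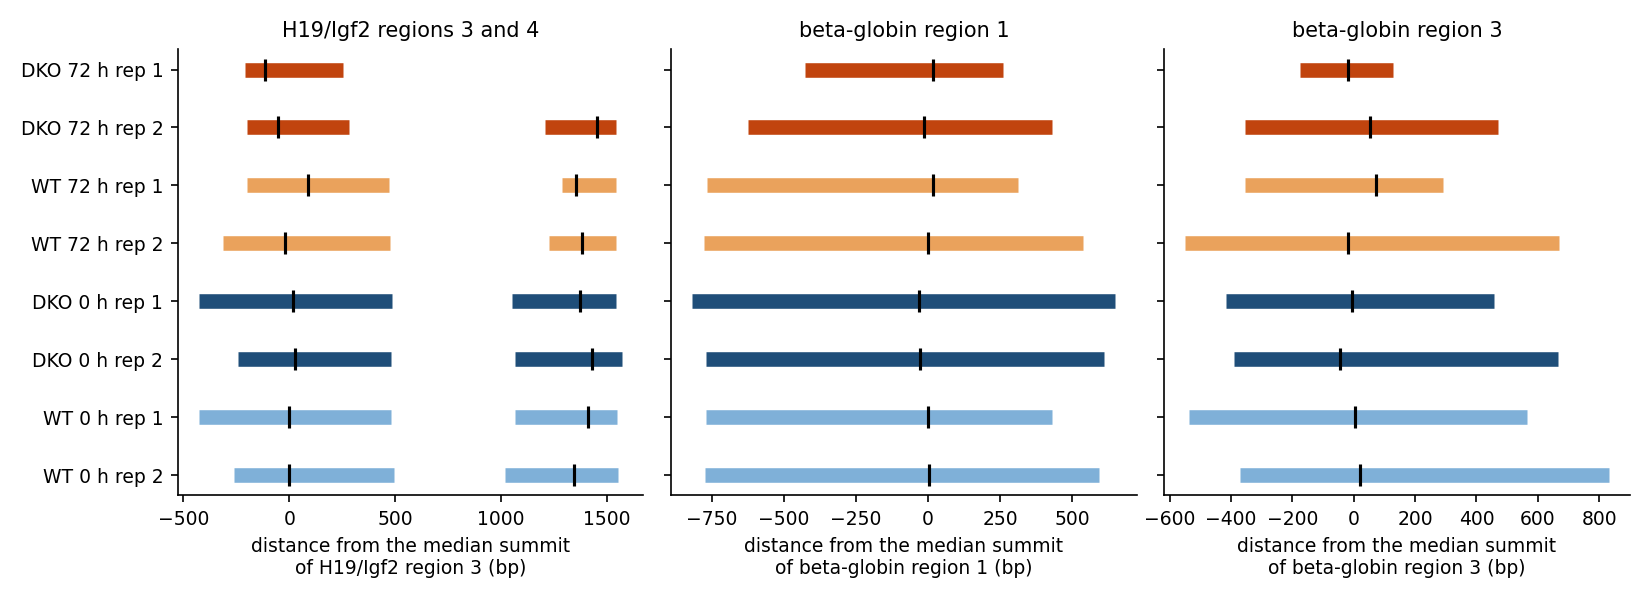
Extent of the listed peaks (bars) and their summits (black ticks) in the 8 libraries, in bp from the median summit of H19/Igf2 region 3 (left, with region 4 on its right), beta-globin region 1 (middle) and beta-globin region 3 (right). The H19/Igf2 pair stays separate in the 7 libraries that hold both peaks, and the summits of beta-globin region 1 lie within 49 bp of each other.

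Regions 1 and 2 were weak or missing in DKO cells at 72 h, and region 1 was weak in WT cells at 72 h too. Regions 4, 5 and 6 also had no peak in DKO 72 h replicate 1. Region 1 had no peak in either DKO library at 72 h, and its fold was 5.16 and 5.62 in WT cells at 72 h, 15.1 and 15.8 in DKO cells at 0 h, and 15.1 and 9.67 in WT cells at 0 h. At 72 h it was the only H19/Igf2 region listed in both replicates of WT cells and in none of DKO cells, 1 of 6 against 9.53% of regions with a peak at 72 h. It was also the only one listed in both DKO replicates at 0 h and not listed in either at 72 h, 1 of 6 against 33.8% of regions with a peak in DKO cells. The WT folds at 72 h were near the lower limit of 4, and those peaks stood at the 13.6 and 16.9 percentile of their lists by the authors' p-value.

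Region 2 had no peak in DKO 72 h replicate 1 and a fold of 4.89 in replicate 2. Its fold was 6.52 and 9.03 in WT cells at 72 h, 10.4 and 12.8 in DKO cells at 0 h, and 18.2 and 10.4 in WT cells at 0 h. All 3 listed values at 72 h were below the 4 values at 0 h, and DKO and WT cells overlapped at 0 h. Lower fold at 72 h was common: both WT libraries at 72 h were below both at 0 h at 75.8% of regions with a peak in those 4 libraries. The pair of regions 1 and 2 therefore gave 1 peak in the 2 DKO lists at 72 h and 4 in the 2 WT lists at 72 h. Of all merged regions, these DKO lists held 25.6% and 40.0%, and these WT lists 42.8% and 65.9%. Regions 4 and 5 were each listed in 1 DKO and 2 WT libraries at 72 h as well.

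Region 5 differed between replicates of the same group, as region 2 did in WT cells at 0 h. It had no peak in DKO 72 h replicate 1, a fold of 8.32 in replicate 2, 6.39 and 14.3 in WT cells at 72 h, 11.4 and 7.63 in DKO cells at 0 h, and 9.77 and 13.0 in WT cells at 0 h. The highest value of all came from WT 72 h replicate 2, so of the 5 H19/Igf2 regions listed in all WT libraries this was the one whose WT folds overlapped between the times. Fold in both WT libraries at 72 h was below both at 0 h in 4 of 5 regions testable at H19/Igf2, against 75.8% of regions with a peak in those 4 libraries.

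Region 6 was the widest of the 6 merged regions, at 1848 bp. Its fold was 6.12 in DKO 72 h replicate 2, with none in replicate 1, 7.89 in WT 72 h replicate 2, with none in replicate 1, 13.8 and 14.1 in DKO cells at 0 h, and 7.77 and 9.93 in WT cells at 0 h. DKO replicate 2 at 0 h held 2 peaks there, and the higher is given. Both DKO libraries at 0 h were above both WT libraries, which overlapped with the 72 h values.

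At 0 h, fold was higher in both DKO libraries than in both WT libraries at 4 of the 6 H19/Igf2 regions. These were regions 1, 3, 4 and 6, against 28.2% of regions with a peak in all 4 libraries. The order was narrow at region 3, where the lower DKO and the higher WT value are 27.5 and 27.4. At region 1 these values were both 15.1 and differed only in further digits, so its place in the count means little. The reverse order was found at 0 of 6, against 15.0%. With 2 libraries against 2, an exact permutation test cannot give a two-sided p below 0.333, so none was run per region.

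**Figure D3:**
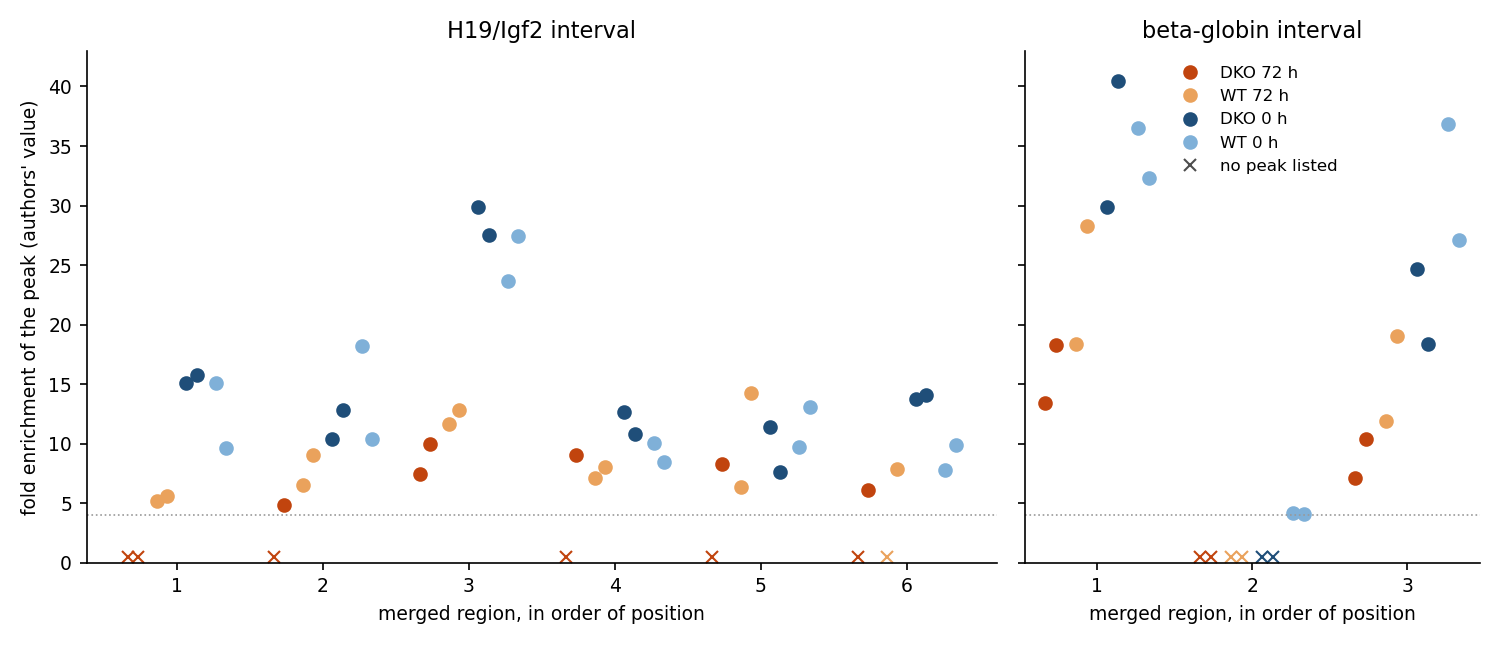
The authors' fold of the listed peak at each merged region, 1 point per library in groups of 2 (DKO 72 h, WT 72 h, DKO 0 h, WT 0 h from left to right), with crosses near 0 where no peak was listed and a dotted line at the fold of 4 below which the lists hold no CTCF peak. H19/Igf2 region 3 stands out at 0 h with folds of 23.6 to 29.9, and beta-globin regions 1 and 3 reach 40.4 and 36.8.

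Beta-globin region 1 was the strongest of the 9 regions. Its fold was 13.4 and 18.3 in DKO cells at 72 h, 18.4 and 28.3 in WT cells at 72 h, 29.9 and 40.4 in DKO cells at 0 h, and 36.5 and 32.3 in WT cells at 0 h. Every 72 h library was below every 0 h library, as at 74.5% of regions with a peak in all 8, and DKO and WT cells overlapped at 0 h. At 72 h both DKO libraries were below both WT libraries, though 18.3 in DKO replicate 2 and 18.4 in WT replicate 1 lay close; beta-globin region 3 had the same order, so it was found at 2 of 2 beta-globin regions, against 50.6%. Its summits fell between 110955746 and 110955795, a range of 49 bp over the 8 libraries. The range was 109 to 203 bp at the other regions, most of them listed in fewer libraries. The share of all regions with so small a range was not computed. In DKO 0 h replicate 1 it had the same fold, 29.9, and the same −log10 p, 70.7, as H19/Igf2 region 3.

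Beta-globin region 3 had lower listed folds in DKO cells than in WT cells at each time. Its fold was 7.16 and 10.4 in DKO cells at 72 h, 11.9 and 19.1 in WT cells at 72 h, 24.7 and 18.4 in DKO cells at 0 h, and 36.8 and 27.1 in WT cells at 0 h. The DKO and WT values did not overlap at either time. Fold in both DKO libraries was below both WT libraries at 15.0% of testable regions at 0 h and at 50.6% at 72 h. Within a library, region 1 exceeded region 3 in fold in 7 of 8 libraries, and the ratio was 1.87 and 1.76 in DKO cells at 72 h, 1.55 and 1.48 in WT cells at 72 h, 1.21 and 2.20 in DKO cells at 0 h, and 0.991 and 1.19 in WT cells at 0 h. The ratio was closest to 1 in WT cells at 0 h, and DKO 0 h replicate 1 was near them. The 2 summits stayed 135785 to 135892 bp apart.

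Region 2 was listed in WT cells at 0 h alone. Its fold was 4.22 and 4.07, just above the limit of the lists, and it had no peak in either DKO library at 0 h or in any library at 72 h. The 2 WT summits were 171 bp apart, and the peaks stood at the 3.51 and 2.38 percentile of their lists. At 0 h it was the 1 of 3 beta-globin regions listed in both replicates of WT cells and in none of DKO cells, against 5.03% of regions with a peak at 0 h. It was also the 1 of 3 listed in both WT replicates at 0 h and not listed in either at 72 h, against 14.2% of regions with a peak in WT cells. Region 2 is among the 3 only because both WT lists at 0 h held it. Both counts were therefore set by how it was admitted, and nothing is drawn from them. A DKO peak slightly below fold 4 would not be in the lists.

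To compare the sites without the general difference in fold between lists, the 3 regions with a peak in all 8 libraries were placed by fold among the 9591 regions that all 8 libraries share. Beta-globin region 1 stood at the 94.8 and 93.7 percentile in DKO cells at 72 h, 93.1 and 92.1 in WT cells at 72 h, 72.8 and 88.8 in DKO cells at 0 h, and 86.6 and 85.5 in WT cells at 0 h. It was higher in all 4 libraries at 72 h than in all 4 at 0 h, although its fold was lower, an order found at 7.17% of the shared regions. The mean percentile was 93.4 ± 1.11 at 72 h and 83.4 ± 7.21 at 0 h (SD, n = 4 each), a difference of 9.99 (exact two-sided permutation test within genotype, p = 0.0556, the smallest this design allows, adjusted p = 0.167 over 6 tests). Without DKO 0 h replicate 1, the lowest library, the difference was 6.45.

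Beta-globin region 3 stood at the 49.3 and 53.1 percentile in DKO cells at 72 h, 65.1 and 67.3 in WT cells at 72 h, 57.5 and 27.9 in DKO cells at 0 h, and 87.2 and 73.3 in WT cells at 0 h. All 4 DKO libraries were below all 4 WT libraries, an order found at 2.33% of the shared regions, and the reverse order was found at 1.93%. The mean was 47.0 ± 13.1 in DKO cells and 73.2 ± 9.95 in WT cells (SD, n = 4 each), a difference of -26.2 (exact two-sided permutation test within time, p = 0.0556, the smallest this design allows, adjusted p = 0.167 over 6 tests). Between times its percentiles overlapped, with a mean difference of -2.75 for 72 h minus 0 h (exact permutation p = 0.722, adjusted p = 0.933).

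H19/Igf2 region 3 stood at the 53.0 and 48.0 percentile in DKO cells at 72 h, 63.4 and 29.5 in WT cells at 72 h, 72.8 and 63.0 in DKO cells at 0 h, and 54.7 and 74.1 in WT cells at 0 h. The groups overlapped in both comparisons. The difference was -17.6 for 72 h minus 0 h (exact permutation p = 0.111, adjusted p = 0.222) and 3.82 for DKO minus WT (exact permutation p = 0.778, adjusted p = 0.933). Without WT 72 h replicate 2, the lowest library, the difference for 72 h minus 0 h was -11.3. For beta-globin region 1, DKO minus WT was -1.82 (exact permutation p = 1, adjusted p = 1). None of the 6 comparisons passed 0.05, and they were made after the fold values had been seen.

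**Figure D4:**
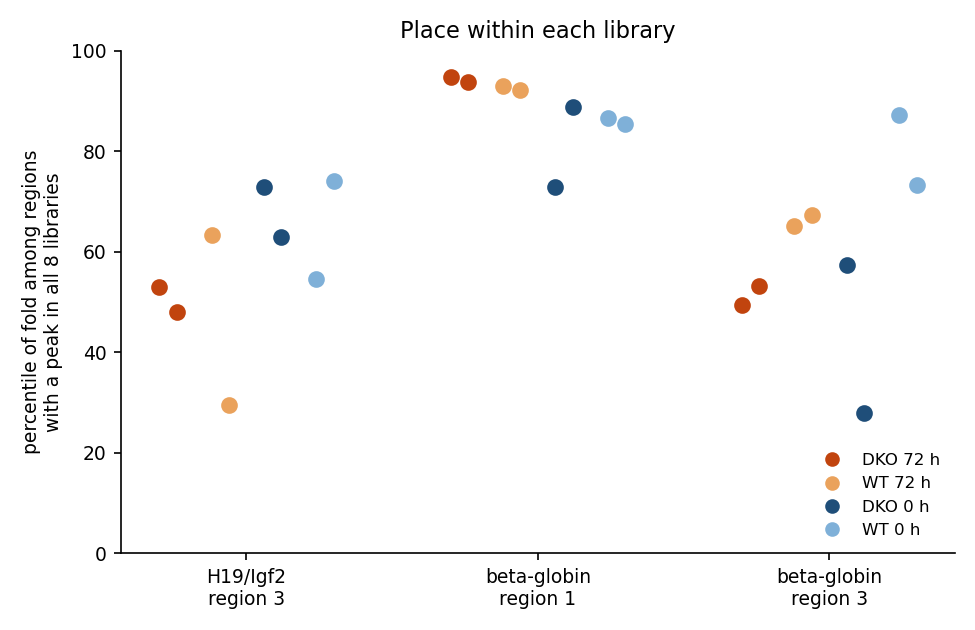
Percentile of fold of the 3 regions with a peak in every library among the 9591 regions shared by all 8 libraries, computed within each library, with 1 point per library in groups of 2 (DKO 72 h, WT 72 h, DKO 0 h, WT 0 h from left to right). At beta-globin region 3 the DKO points lie between 27.9 and 57.5 and the WT points between 65.1 and 87.2, and at beta-globin region 1 the 72 h points lie above the 0 h points.

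The number of sites listed per library was then compared. At H19/Igf2 it was 1 and 5 of 6 regions in DKO cells at 72 h, 5 and 6 in WT cells at 72 h, and 6 in each of the 4 libraries at 0 h. The libraries with fewer regions were those with short lists. DKO 72 h replicate 1 held a peak at 25.6% of all 39574 regions, DKO 72 h replicate 2 at 40.0%, WT 72 h replicates 1 and 2 at 42.8% and 65.9%, and the libraries at 0 h at 75.7% to 81.3%. Of the 24438 regions with a peak in all 4 libraries at 0 h, DKO 72 h replicate 1 held 40.9% and 1 of the 6 at H19/Igf2. The corresponding shares were 62.7% and 5 of 6 in DKO 72 h replicate 2, 65.2% and 5 of 6 in WT 72 h replicate 1, and 86.9% and 6 of 6 in WT 72 h replicate 2.

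The mean number at H19/Igf2 was 4.25 ± 2.22 at 72 h and 6 ± 0 at 0 h (SD, n = 4 each), a difference of -1.75 (exact two-sided permutation test within genotype, 36 assignments, p = 0.167, adjusted p = 0.444 over 4 tests). It was 4.5 ± 2.38 in DKO cells and 5.75 ± 0.5 in WT cells, a difference of -1.25 (exact permutation within time, n = 4 each, p = 0.667, adjusted p = 0.667). Without DKO 72 h replicate 1 the differences were -0.667 and -0.0833, values that also reflect the uneven number of libraries per group. With the same 10339 top peaks in every list both differences changed sign, to 0.75 and 0.25, as 3 regions were left. Of these, region 3 was in all 8 lists, region 4 in DKO 72 h replicate 2 alone, and region 5 in replicate 2 of DKO and of WT cells at 72 h.

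At beta-globin the number was 2 in every DKO library and in both WT libraries at 72 h, and 3 in both WT libraries at 0 h. The mean was 2 ± 0 at 72 h and 2.5 ± 0.577 at 0 h (SD, n = 4 each), and it was 2 ± 0 in DKO cells and 2.5 ± 0.577 in WT cells. Both differences were -0.5. They come from region 2 alone, which is among the regions only because both WT lists at 0 h held it, so their sign was set by how that region was admitted and no p is given. Both were 0 when peaks needed a −log10 q of at least 5. At equal list length region 1 was kept in all 8 libraries and region 3 in 7, being lost from DKO 0 h replicate 2.

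**Figure D5:**
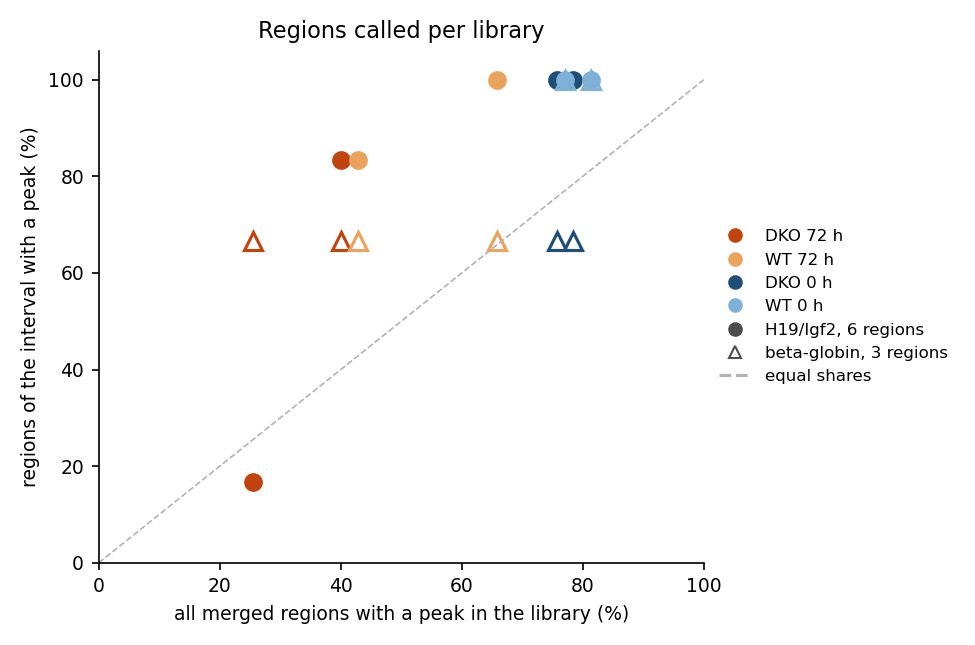
Percent of the regions of each interval that had a peak in a library (y axis) against the percent of all 39574 merged regions with a peak in it (x axis), for H19/Igf2 (filled circles, 6 regions) and beta-globin (open triangles, 3 regions), with a dashed line of equal shares. DKO 72 h replicate 1 lies below the line at H19/Igf2 with 1 of 6 regions, and the beta-globin share is the same in the 6 libraries other than WT 0 h.

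Presence of a peak was tested at each of the 39574 regions by two-sided Fisher's exact test over 4 libraries against 4. None of the 9 regions had an unadjusted p under 0.05 for 72 h against 0 h or for DKO against WT. The lowest was 0.429, for H19/Igf2 regions 1 and 6 and beta-globin region 2 between the times, and for H19/Igf2 region 1 and beta-globin region 2 between the genotypes. For beta-globin region 2 nothing is drawn from this p, since only the WT lists at 0 h admitted it. Over the whole table, 3004 regions for time and 202 for genotype reached the smallest possible p of 0.0286 by Fisher's exact test, and 0 passed an adjusted 0.05 in either comparison (Benjamini-Hochberg). With that smallest p, any region could pass only if most of the 39574 regions reached it. The counts of 0 therefore say little about single regions.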

How the data were processed

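The deposited files were narrowPeak lists, 1 per library, so peaks had been called per library and not on pooled samples. Per the submitters' processing notes, Bowtie2 2.2.5 and MACS2 2.1.1 were used with build mm9; not given in the sources used here were the control and cutoffs of the caller. The deposited fold column is the authors' ratio of a peak to local background. The −log10 p and −log10 q values per peak were also deposited by the authors. The deposited score column entered no comparison. The deposited summit column gives the distance from the peak start in bp.

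Groups and replicate numbers came from the sample titles. Peaks on chromosomes 1 to 19 and X were merged over 8 libraries at 1 bp overlap (Python 3.11.15, pandas 2.3.3). Where a library had several peaks in a region, the one with the highest −log10 p was used. Percentiles within a list use −log10 p, and those among shared regions use fold. Tests were exact permutation over libraries and Fisher's exact test per region, Benjamini-Hochberg adjusted (scipy 1.17.1, statsmodels 0.14.6), checked on simulated data. All 9 regions are described, as the naming rule set. The intervals and tests were chosen with earlier results of these data known; the percentile comparison among shared regions was added after seeing the values. Alternatives were a −log10 q of at least 5, lists of 10339 peaks, overlap of 50% of the shorter peak, each library left out, a replicate block and, for shared regions, ranking by −log10 p. Read depth was not given, so no counting intervals are given. The positions are the files' own, written from 1.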

Additional observations from a re-analysis of the deposited data

How the results depend on the processing

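With equal lists of 10339 peaks, H19/Igf2 kept 3 regions, the 72 h minus 0 h and DKO minus WT differences became 0.75 and 0.25, beta-globin regions with a peak in all libraries numbered 1, and its 72 h minus 0 h difference became 0.25. At a −log10 q of at least 5 both beta-globin differences were 0. These changes follow from which peaks remain in the lists. Leaving out 1 library each gave 1 to 4 H19/Igf2 regions with a peak in all remaining libraries, the 4 without DKO 72 h replicate 1. For the percentile among shared regions, 72 h minus 0 h at H19/Igf2 region 3 ran from -22.3 to -11.3, and DKO minus WT ran from -4.83 to 10.1 there, reversed when WT 72 h replicate 2 (-4.83) or DKO 0 h replicate 1 (-0.69) was left out. At beta-globin region 1 it ran from -3.83 to 3.09, reversed without DKO 0 h replicate 1 (3.09). At beta-globin region 3, 72 h minus 0 h ran from -13.9 to 5.81, reversed without DKO 72 h replicate 1 (1.24), WT 0 h replicate 1 (5.81) or WT 0 h replicate 2 (1.16); the cause was not tested. DKO minus WT at beta-globin region 3 kept its sign in every alternative run, from -30.9 to -19.9, as did 72 h minus 0 h at region 1, from 6.45 to 15.9; at equal list length region 3 gave no value, since DKO 0 h replicate 2 had no peak left there.

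The permutation tests over all 8 libraries allow no p below 0.0556, so staying above 0.05 says nothing about stability. With a replicate block, the H19/Igf2 differences stayed at -1.75 and -1.25 and the beta-globin differences at -0.5, and the block allows no p below 0.125. Libraries with the same number did not deviate together over regions (correlations from -0.0167 to 0.0392). With 2 libraries per group, this cannot show whether libraries of the same number were made together. The main tests did not take the numbers as pairs, and the block is given as an alternative. List length and the fold limit of 4 bound what a missing peak can show.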
